A study of Mus musculus with 237 samples.

Results

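The 8 genes described here, Tfap2a, Tfap2b, Tfap2c, Grhl1, Grhl2, Grhl3, Gata3 and Klf5, encode transcription factors of the surface ectoderm, the embryonic sheet from which epidermis forms. They were chosen by name, from 55335 genes in the count table, and each was found by the Ensembl identifier of its symbol. The question asked of them was which factors stay on in cells where basal keratins are low.

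Each column of the table holds 1 cell of mouse skin at E14.5, read from full-length cDNA made with SMART-Seq HT, which adds no molecular identifiers. By the labels, 66 cells came from 3 wild-type embryos (WT01 to WT03) and 171 from 7 p63 knockout embryos (MU01 to MU07), all C57BL/6N embryos carried by ICR surrogates. The knockouts were made by electroporating zygotes with Cas9 protein and a guide against the exon for the DNA-binding domain of Trp63. Cells were sorted as negative for PI, CD45, TER119 and CD140a. Wild-type epidermis was lifted with dispase before trypsin, whereas knockout fetuses went straight into trypsin. The methods state that libraries with Krt5 were selected in the wild type and with Krt8 in the knockout, without clear amplification of Pdgfra. Genotype, preparation and screening therefore cannot be told apart. The labels name 70 of the knockout cells mutant fibroblast, all from MU01, so this screen does not describe every deposited library.

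The columns are named by sequencing run, and 16 of them could be paired with a labelled cell. All 16 belong to the wild-type embryo WT01, with 11 cells of the basal layer, 1 of the intermediate layer and 4 with high K17. The other columns carry no embryo and no genotype here, and none was inferred from the values, so they stand as 1 pooled sample. There are no replicates of any group, no test between groups was made, and ranges over cells describe cells and not embryos.

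Columns were placed in states by CPM, the rounded count of a gene for a column total scaled to 1000000 counts. A basal column had at least 300 CPM of Krt5 and of Krt14 and under 100 CPM of Krt8, the keratins of the basal epidermal layer against a keratin of simple epithelium. A simple column had at least 100 CPM of Krt8 and of Krt18 and under 100 CPM of Krt5 and of Krt14. A mesenchymal column had at least 100 CPM of the collagen genes Col1a1 and Col3a1. These rules gave 54 basal, 66 simple and 79 mesenchymal columns, with 1 column both simple and mesenchymal. A further 5 columns had basal keratins together with at least 100 CPM of Krt8, and 34 columns met no rule. Total counts ran from 4934323 to 15710391 in basal columns (median 7822728), from 2874249 to 19197937 in simple columns (median 7277219) and from 2702464 to 9838937 in mesenchymal columns (median 6094431).

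AP-2 factors (Tfap2 genes) bind GC-rich DNA as dimers and act early in surface ectoderm and neural crest. Grainyhead-like factors (Grhl genes) control epithelial junctions, neural tube closure and the skin barrier. Gata3 is a zinc-finger factor needed for the barrier and for hair follicles, and Klf5 is a zinc-finger factor of dividing epithelial cells. p63, the product of Trp63, is the factor that commits surface ectoderm to stratified epidermis with Krt5 and Krt14.

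RefSeq promoter sequences (GRCm38.p6, from 250 bases before to 50 bases after the start) matched 5 of the 8 genes, with 7 promoters, and Tfap2c, Grhl2 and Klf5 were not matched. They are shown for Gata3, which was on in every basal column, and for Grhl3 and Grhl1, which were on in more simple than basal columns, so that the stretches before their starts can be read beside those values. Capitals mark the letters GCCNNNGGC, an AP-2 motif, and CCACCC, a Klf motif, on either strand. Only the 250 bases before each start are printed.

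Gata3, chr2:9878601-9878850, minus strand: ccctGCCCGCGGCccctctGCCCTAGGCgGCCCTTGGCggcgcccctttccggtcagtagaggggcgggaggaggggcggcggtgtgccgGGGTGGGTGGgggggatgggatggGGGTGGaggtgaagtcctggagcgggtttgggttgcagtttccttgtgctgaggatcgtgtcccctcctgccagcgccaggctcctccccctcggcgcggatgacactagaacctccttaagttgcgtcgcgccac
Grhl3, chr4:135573633-135573882, minus strand: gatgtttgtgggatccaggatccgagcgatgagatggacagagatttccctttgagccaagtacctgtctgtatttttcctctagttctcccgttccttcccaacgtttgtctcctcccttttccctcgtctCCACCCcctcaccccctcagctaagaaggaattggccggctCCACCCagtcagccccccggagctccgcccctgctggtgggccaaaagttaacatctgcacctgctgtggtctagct
Grhl1, chr12:24572037-24572286, plus strand: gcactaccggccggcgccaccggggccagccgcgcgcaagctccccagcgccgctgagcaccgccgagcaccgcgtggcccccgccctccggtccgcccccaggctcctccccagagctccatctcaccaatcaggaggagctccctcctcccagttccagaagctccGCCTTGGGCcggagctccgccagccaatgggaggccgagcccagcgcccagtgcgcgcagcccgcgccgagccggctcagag

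The Gata3 promoter held 3 AP-2 and 3 Klf motifs, of which 2 Klf motifs overlap, the Grhl3 promoter held 2 Klf motifs and this Grhl1 promoter held 1 AP-2 motif. Of the 7 promoters, 2 held the AP-2 motif, against 16.6% of all 32851 promoters, and 3 held the Klf motif, against 31.5%. The Grainyhead motif AACCGGTT (0.146% of all promoters), the GATA motif AGATAA (11.2%) and the p63 core pair, CATG and CATG with 6 bases between (0.712%), were in none of the 7 promoters. These are matches of letters in a short window, and binding was not measured.

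Trp63 was read first, as the gene targeted in the knockout. In the labelled wild-type cells it lay between 304 and 637 CPM in the basal layer, at 273 CPM in the intermediate-layer cell and between 337 and 1176 CPM in the K17-high cells. Over the states, its median was 498 CPM in basal columns (166 to 1288), 80.7 CPM in simple columns (0.251 to 3378) and 0 CPM in mesenchymal columns (at most 50.5). Trp63 RNA was thus present at 10 CPM or more in 74.2% of simple columns, and its level was not used to assign a genotype.

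A factor was called on in a column at 10 CPM or more. Each share of columns comes with its exact 95% Clopper-Pearson interval and each level of summed columns with an exact 95% Poisson interval. Both cover counting error only. The interval of a share counts columns as if they were independent, although columns may share an embryo, and the interval of a sum counts reads, although amplified reads are not independent molecules. Neither covers the difference between embryos, so a share limit such as those below describes the columns at hand.

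Gata3 (ENSMUSG00000015619, GRCm38 chr2:9857078-9890034) had a median of 322 CPM in basal columns, between 63.6 and 951 CPM. In simple columns the median was 289 CPM, between 0.268 and 1735 CPM. In mesenchymal columns the median was 0 CPM, with at most 47.3 CPM. Gata3 was on in 54 of 54 basal columns (100%, 93.4% to 100%), in 56 of 66 simple columns (84.8%, 73.9% to 92.5%) and in 2 of 79 mesenchymal columns (2.53%, 0.308% to 8.85%). It stayed on, then, in most simple columns, but 10 of them fell under 10 CPM where no basal column did. In summed columns it stood at 334 CPM in basal (332 to 336) and 420 CPM in simple columns (418 to 422), so the sum was higher in simple columns while the median was lower.

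Klf5 (ENSMUSG00000005148, chr14:99298691-99315036) had a median of 211 CPM in basal columns (0 to 1368) and 358 CPM in simple columns (0.696 to 1198). It was on in 49 of 54 basal columns (90.7%, 79.7% to 96.9%) and 62 of 66 simple columns (93.9%, 85.2% to 98.3%). The ranges of both states overlapped over nearly their whole width. Klf5 was also the factor most often on in mesenchymal columns, in 27 of 79 (34.2%, 23.9% to 45.7%), with a median of 0.499 CPM and at most 97.6 CPM. Those 27 columns had a median of 29.9 CPM Klf5, and the medians of the other 7 factors, of Epcam and of Krt8 were 0 CPM in them. Klf5 was therefore the 1 factor of the 8 that was on, at a low level, in a sizeable share of columns with collagen genes.

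Among the AP-2 genes, Tfap2b (ENSMUSG00000025927, chr1:19208914-19238576) had a median of 209 CPM in basal columns (6.20 to 729) and 186 CPM in simple columns (0.268 to 2699). It was on in 53 of 54 basal columns (98.1%, 90.1% to 99.95%) and 57 of 66 simple columns (86.4%, 75.7% to 93.6%). Simple columns reached both higher and lower values than basal columns. Tfap2a (ENSMUSG00000021359, chr13:40715302-40738376) was low in both states, with medians of 14.9 CPM in basal (0 to 79.0) and 11.9 CPM in simple columns (0 to 296). Its medians lay close to the 10 CPM limit, and it was on in 32 of 54 basal columns (59.3%, 45.03% to 72.4%) and 35 of 66 simple columns (53.03%, 40.3% to 65.4%). At this level the share follows the limit chosen: at 30 CPM, Tfap2a was no longer on in most simple columns. Its upper quartile was 24.7 CPM in basal and 34.5 CPM in simple columns. At 30 CPM its share was therefore lower in basal than in simple columns. Tfap2c (ENSMUSG00000028640, chr2:172549593-172558622), an AP-2 gene also known from trophoblast and germ cells, rose from a median of 40.02 CPM in basal columns (0 to 870) to 201 CPM in simple columns (0 to 1294). It was on in 36 of 54 basal columns (66.7%, 52.5% to 78.9%) and 59 of 66 simple columns (89.4%, 79.4% to 95.6%). In mesenchymal columns, Tfap2a was on in 0 of 79 (interval up to 4.56%), Tfap2b in 1 and Tfap2c in 2.

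Among the Grainyhead genes, Grhl2 (ENSMUSG00000022286, chr15:37233036-37363569) was alike in both epithelial states, with medians of 73.9 CPM in basal (0 to 335) and 67.8 CPM in simple columns (0 to 481). It was on in 44 of 54 basal columns (81.5%, 68.6% to 90.7%) and 49 of 66 simple columns (74.2%, 61.99% to 84.2%). Grhl3 (ENSMUSG00000037188, chr4:135541888-135573630), the family member tied to barrier formation and periderm, had a median of 1.27 CPM in basal columns (0 to 851) and 213 CPM in simple columns (0.417 to 1840). It was on in 18 of 54 basal columns (33.3%, 21.1% to 47.5%) and 55 of 66 simple columns (83.3%, 72.1% to 91.4%). Grhl1 (ENSMUSG00000020656, chr12:24572283-24617391), which acts on desmosomal cadherins, had a median of 0.277 CPM in basal columns (0 to 533) and 51.5 CPM in simple columns (0 to 633). It was on in 10 of 54 basal columns (18.5%, 9.25% to 31.4%) and 37 of 66 simple columns (56.1%, 43.3% to 68.3%). Both genes thus showed an on-or-off spread over columns in the basal state and not a uniform low level. No Grainyhead gene reached 10 CPM in any of 79 mesenchymal columns.

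**Figure D1:**
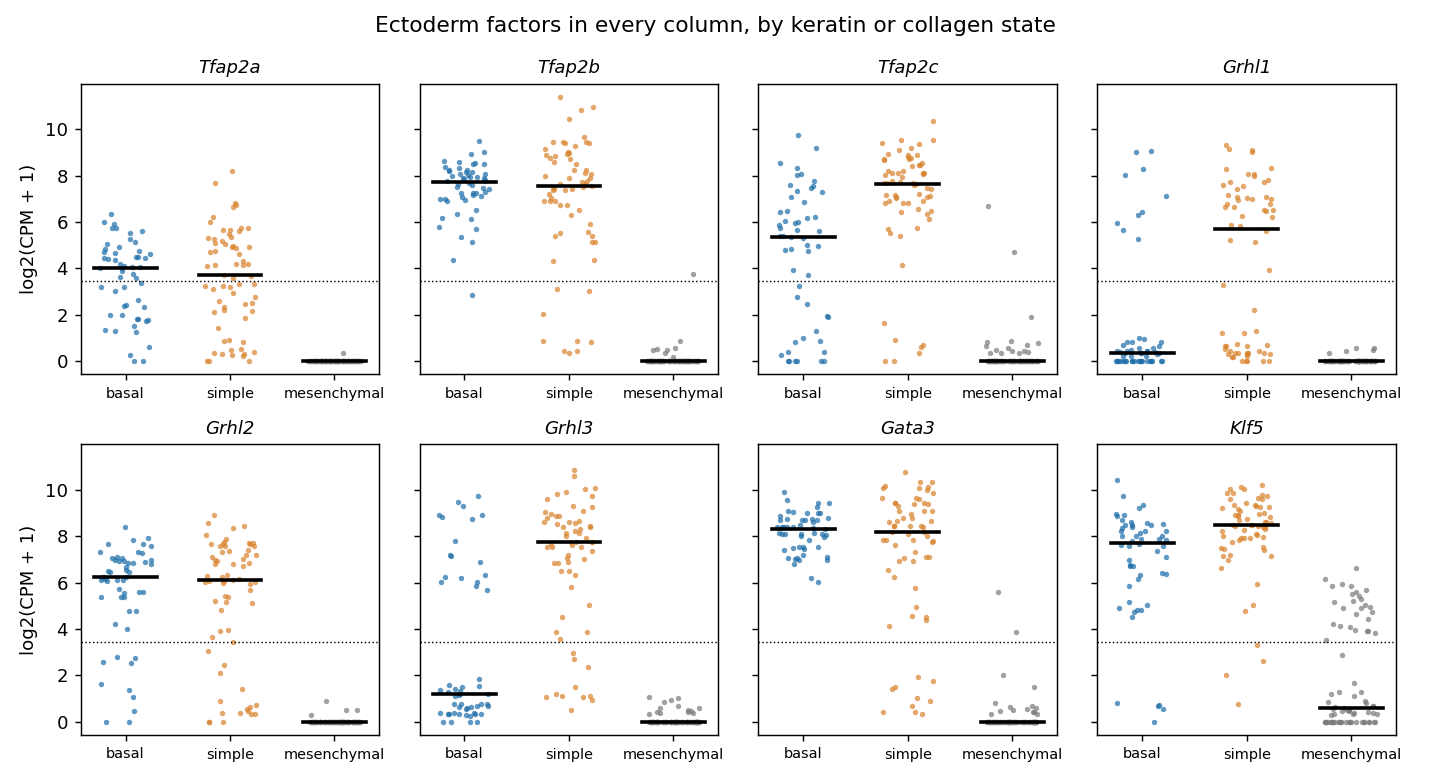
Level of each factor, as log2(CPM + 1), in 54 basal, 66 simple and 79 mesenchymal columns, with 1 point per column, black bars at the medians and the dotted line at 10 CPM. Gata3, Tfap2b and Klf5 have medians above 100 CPM in both epithelial states. Grhl1 and Grhl3 split into high and low columns, and only Klf5 has many mesenchymal columns above the line.

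In all, 6 of the 8 factors (Tfap2a, Tfap2b, Tfap2c, Grhl2, Gata3 and Klf5) were on in at least 50% of basal columns, which is called most columns here, and 6 of these 6 were also on in most simple columns. Among all 7149 genes on in most basal columns, 5118 were also on in most simple columns, which is 71.6%. The remaining 2 factors, Grhl1 and Grhl3, were not on in most basal columns and were on in most simple columns, as were 326 of 22523 genes, or 1.45%. These 22523 genes needed only a count in either epithelial state, so they include genes of very low level. None of the 8 factors was on in most mesenchymal columns, whereas 4469 of the 5444 genes on in most simple columns were, which is 82.1%. Against the limit of 50%, every factor was therefore on in simple columns, with shares from 53.03% for Tfap2a to 93.9% for Klf5. Since basal and simple columns differ in depth, columns were also thinned to 1000000 counts, and the shares moved little: Grhl3 stayed at 33.3% of basal and 83.3% of simple columns, and Tfap2a came to 62.96% and 56.1%.

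**Figure D2:**
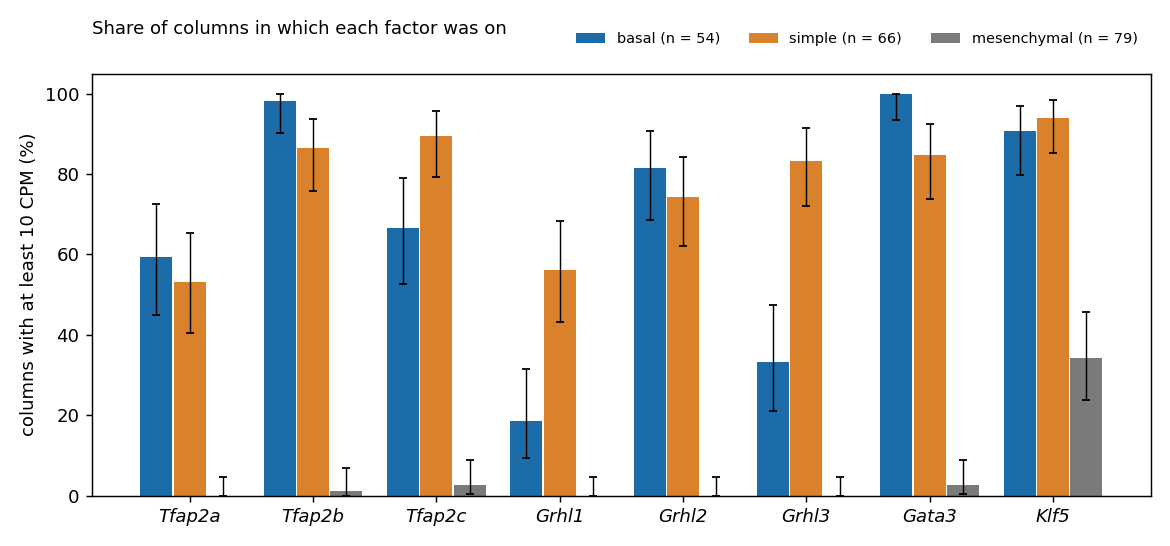
Share of columns, in percent, with at least 10 CPM of each factor in basal, simple and mesenchymal columns, with exact 95% intervals as error bars. In simple columns the shares run from 53.03% for Tfap2a to 93.9% for Klf5, and in mesenchymal columns they exceed 2.53% only for Klf5, at 34.2%.

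Counted per column, a median of 6 factors was on in basal columns (3 to 8) and of 6 in simple columns (1 to 8). At least 6 factors were on together in 28 of 54 basal columns and in 48 of 66 simple columns, and all 8 in 3 and 12 columns. Simple columns thus mostly carried a large part of the set at once. In mesenchymal columns, 48 of 79 had none of the factors on, 30 had 1 and 1 had 2. At least 1 AP-2 gene was on in 54 of 54 basal and 64 of 66 simple columns, and at least 1 Grainyhead gene in 48 of 54 and 63 of 66. Grhl1 and Grhl3 were on together in 7 basal columns, out of 10 with Grhl1 and 18 with Grhl3, and in 33 simple columns, out of 37 and 55.

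**Figure D3:**
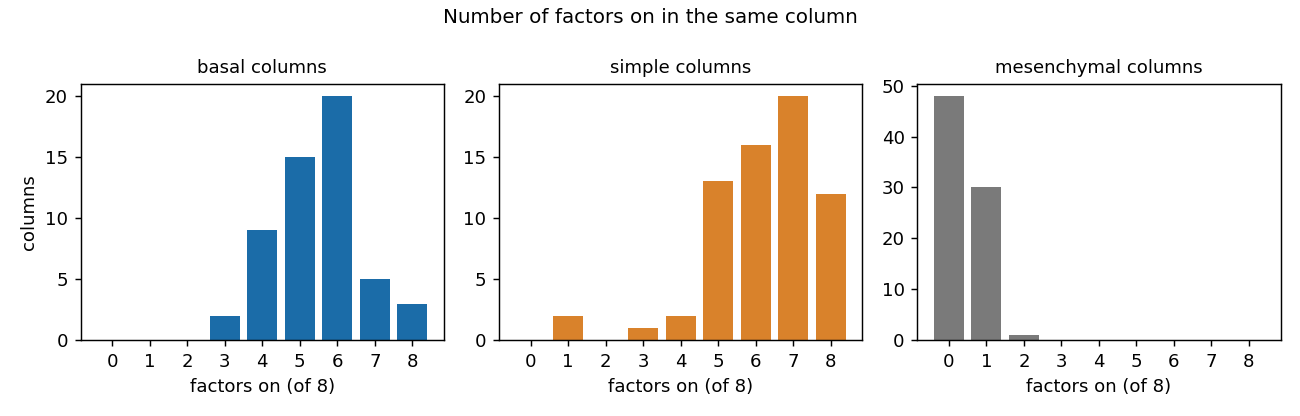
Number of columns, on the vertical axis, by the number of the 8 factors on in the same column, for basal, simple and mesenchymal columns. Basal columns peak at 6 factors and simple columns at 7, while 48 of 79 mesenchymal columns have none.

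Only 3 simple columns had 3 factors or fewer on, and among them was the 1 column that was also mesenchymal. These 3 columns had a median of 13.03 CPM Epcam, 5.28 CPM Trp63 and 751 CPM Col3a1, against 1189, 82.7 and 61.9 CPM in the other 63 simple columns. Their median total, 6445375 counts, and median number of detected genes, 8944, were lower than those of the others, 7326504 and 9772. The part of collagen-bearing or shallower columns in the low counts of factors was not tested.

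The columns nearest the keratin limit are given once. With Krt8 and Krt18 at 100 CPM or more, the 3 columns nearest below the limit had 64.3, 67.1 and 73.0 CPM of the larger of Krt5 and Krt14 and 5, 7 and 7 factors on. The 3 nearest above it had 102, 107 and 129 CPM and 7, 8 and 6 factors on. Single factors varied widely on both sides, and Grhl3 had 297, 5.60 and 1840 CPM in the columns below the limit and 0.920, 744 and 2862 CPM in those above it. Simple columns were far from the limit as a rule, with medians of 1.99 CPM Krt5, 2.12 CPM Krt14, 2068 CPM Krt8 and 1196 CPM Krt18.

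For the difference between the states, the counts of all columns of a state were summed, and the log2 ratio of simple over basal columns was taken after adding 1 CPM. The log2 ratio was 1.71 for Grhl3 (92.2 CPM in basal and 304 CPM in simple columns), 1.56 for Tfap2c (83.9 and 249 CPM) and 1.45 for Grhl1 (40.6 and 112 CPM). It was 0.76 for Klf5 (262 and 444 CPM). The other 4 factors had smaller ratios, 0.43 for Tfap2b, 0.40 for Tfap2a, 0.33 for Gata3 and 0.20 for Grhl2, and these 4 turned negative, between -0.30 and -0.12, when medians of columns replaced sums. That setting, which keeps only genes with a median above 0 in either state, moved the median of all genes by -0.37, while size factors moved it by 0.011. None of the 8 factors was at least 4-fold lower in simple columns, where 560 of 29672 genes with a count (1.89%) were, and none was at least 4-fold higher, where 993 genes (3.35%) were. These shares were 6.48% and 9.42% with a pseudocount of 0.1 CPM. For genes of at least 1 CPM in either state they were 3.36% and 5.95%. Neither setting put a factor past 4-fold. With medians of columns, Tfap2c, Grhl1 and Grhl3 were more than 4-fold higher, beside 2.99% of the genes with a median above 0 in either state, and no factor was 4-fold lower, beside 20.97% of them. The median log2 ratio of the 8 factors was 0.59, beside 0.0025 for all genes tested and -0.11 for the genes on in most basal columns.

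Single columns carried part of these sums. For Grhl1, 32.7% of the basal count came from 1 column and 65.7% from 3 columns, and with any 1 of the 120 columns left out its log2 ratio lay between 1.25 and 1.96. For Grhl3, 17.2% of the basal count came from 1 column, and its ratio lay between 1.62 and 1.95. With any 1 column left out, the ratios of the other 6 factors kept their sign, and the lowest was 0.038, for Grhl2.

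Against mesenchymal columns the factors were far apart from both epithelial states. No mesenchymal column was paired with a label, but the 70 cells labelled mutant fibroblast came from 1 knockout embryo. The mesenchymal side may therefore rest largely on 1 embryo. All 8 were at least 4-fold lower in summed mesenchymal than in summed simple columns, as were 1450 of 30178 genes (4.80%). These are all genes with a count in either state, and those of low level cannot reach 4-fold after adding 1 CPM. A share for expressed genes alone was not counted here. The summed level in mesenchymal columns was 12.8 CPM for Klf5 (12.5 to 13.1), 1.95 CPM for Tfap2c (1.83 to 2.08), 0.875 CPM for Gata3 (0.793 to 0.962) and 0.129 CPM or less for the other 5. For Tfap2c, 78.4% of the mesenchymal count came from 1 column, and without it the level was 0.428 CPM. For Gata3, 59.7% came from 1 column, and without it the level was 0.357 CPM, so both levels rested largely on 1 column each.

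Levels of the 8 factors were ranked against each other only per length, as TPM (the count per kilobase of merged exons, scaled to 1000000 over all genes), with the spread over columns as quartiles. In basal columns the order of median TPM was Gata3 (223), Klf5 (121), Tfap2b (97.8), Tfap2c (30.9), Grhl2 (25.2), Tfap2a (8.85), Grhl3 (1.42) and Grhl1 (0.138). In simple columns it was Grhl3 (241), Klf5 (217), Gata3 (213), Tfap2c (166), Tfap2b (88.9), Grhl1 (30.0), Grhl2 (25.3) and Tfap2a (7.11). Grhl3 thus moved from place 7 to place 1. In simple columns, neighbours from Grhl3 down to Tfap2b did not differ beyond their spread, since the quartiles of Grhl3 (70.9 to 459) spanned the medians of Klf5, Gata3, Tfap2c and Tfap2b. In basal columns, Gata3 (quartiles 140 to 314) lay above the median of Klf5, while Klf5 (37.3 to 201) spanned the median of Tfap2b.

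Some members share the genome with other genes on the opposite strand, and the sources used here do not state whether counting used the strand, so reads of such pairs cannot be told apart. Gm16136, whose exon overlaps the start of Grhl2, held 57.9% of the counts of both genes together. Gm16136 had a median of 17.9 CPM in basal and 103 CPM in simple columns and was on in 61.1% and 84.8% of them. Its level did not follow that of Grhl2, with a Spearman correlation of 0.029 over the 120 columns. Within Tfap2a and overlapping its exons, Gm26688 held 14.525% and Gm47061 7.72% of the counts of each pair, and within Gata3, Gm13256 held 3.33%.

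The factors followed each other only loosely from cell to cell. Within 54 basal columns the 28 pairs of factors had Spearman correlations between -0.33 and 0.47 (median 0.087), and within 66 simple columns between -0.21 and 0.43 (median 0.12). The points share a library method and differ in depth, whether they share a preparation or an embryo is not known for most, and values this small were not read further. Correlations over 0.3 were found for 3 pairs in each state. Klf5 was among the highest in both, with Grhl3 (0.47 in basal and 0.41 in simple columns) and with Grhl1 (0.46 and 0.43). In addition, Tfap2a and Tfap2b had 0.42 in basal but 0.22 in simple columns, and Tfap2c and Grhl3 had 0.26 and 0.35. Within simple columns, the number of factors on had a correlation of -0.056 with Trp63, -0.032 with Krt8, -0.24 with Krt5, -0.20 with Krt14, 0.0084 with Col3a1 and -0.099 with the total count.

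Over the 120 basal and simple columns together, each factor was also set beside 11690 genes that were on in at least 10% of them, so that here a difference between the states adds to the likeness. The 3 genes nearest to Grhl3 were Metrnl (0.69), Ocln (0.66), a tight junction gene, and Nectin4 (0.65). For Tfap2c they were Metrnl (0.59), Syngr1 (0.56) and Aplp2 (0.55), and for Grhl1 Smtnl2 (0.56), Syngr1 (0.55) and Klf5 (0.55). These genes were higher in summed simple than basal columns, Metrnl with 305 against 23.7 CPM. Nearest to Klf5 were Jup (0.63), which encodes plakoglobin, Smtnl2 (0.61) and Gm16136 (0.59). The other 4 factors had looser neighbours. Gata3 had Bdh1 (0.39) and Cd9 (0.35) among its nearest, and Tfap2a had Dvl3 (0.44), Taz (0.38) and Ash1l (0.36). Tfap2b had Nav1 (0.41), Cdk7 (0.40) and Rbpj (0.39), and Grhl2 had Arhgap27 (0.30), Herc3 (0.30) and Gm49700 (0.29). Set against the keratins, Grhl3 had correlations of 0.53 with Krt8, -0.48 with Krt5 and -0.41 with Trp63, whereas Gata3 had 0.038, 0.012 and 0.098. Since Krt8 and Krt5 define the states, these values restate the difference between the states. Within basal and within simple columns, Grhl3 had 0.16 and 0.23 with Krt8, 0.080 and -0.21 with Krt5, and -0.031 and -0.099 with Trp63. Gata3 had 0.026 and 0.19 with Krt8, 0.11 and -0.051 with Krt5, and 0.36 and 0.024 with Trp63.

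Within basal columns, those with Grhl3 on were compared with the others. The 18 columns with Grhl3 on had medians of 368 CPM Klf5, 102 CPM Cldn4, 17.6 CPM Krt1 and 453 CPM Trp63, and the 36 without it had 146, 31.3, 3.01 and 544 CPM. The 10 columns with Grhl1 on had medians of 276 CPM Grhl3, 63.1 CPM Krt1, a keratin of the layers above the basal one, and 22.2 CPM Cldn6, against 0.944, 4.02 and 0.730 CPM in the other 44. The median total was 9493741 counts in the 10 basal columns with Grhl1 on and 7777493 in the other 44. Within simple columns, the 37 with Grhl1 on and the 29 without it had medians of 430 and 244 CPM Klf5, 218 and 199.98 CPM Grhl3, and 5.16 and 268 CPM Col3a1. Cldn6 went the other way there, with medians of 438 and 609 CPM.

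Columns that met no rule widen the picture. In 16 of the 34, Krt8 and Krt18 were at 100 CPM or more together with Krt5 or Krt14, and the medians were 319 CPM Grhl3, 223 CPM Tfap2c, 248 CPM Gata3 and 7.61 CPM Grhl2. In 6 columns Krt8 was under 100 CPM while Krt5 or Krt14 was at 100 CPM or more. These 6 had medians of 9873 CPM Krt1 and 8391 CPM Krt10, and of 552 CPM Grhl1, 558 CPM Grhl3, 805 CPM Klf5 and 593 CPM Gata3, with 6.30 CPM Tfap2b. Grhl1 and Grhl3 were on in 6 of these 6, so their high values were not limited to columns with Krt8. Among these 6 was the labelled intermediate-layer cell of WT01, which is described below. In 7 columns Krt5, Krt14 and Krt8 were all under 100 CPM, and a median of 2 factors was on. In 5 columns Krt8 reached 100 CPM but Krt18 did not, and a median of 6 factors was on. Of the 5 columns with basal keratins and Krt8, Tfap2c and Klf5 were on in 5, Gata3 in 4, Grhl1 in 2 and Grhl3 in 1.

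The 16 labelled cells of WT01 show the factors under the labels of the study. By the rules above, 11 of 11 basal-layer cells and 4 of 4 K17-high cells were basal columns, and the intermediate-layer cell met no rule, with 12.9 CPM Krt14, 13862 CPM Krt1 and 15379 CPM Krt10. K17-high cells had 1715 to 3901 CPM Krt17, against 4.37 to 613 CPM in the basal layer, as their label says. The labels of all other columns, with every knockout cell and the surface ectoderm remnant, were not paired, so no level is given for them.

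Gata3 lay between 111 and 951 CPM in the 11 basal-layer cells (median 186) and had 470, 433, 317 and 620 CPM in the K17-high cells and 537 CPM in the intermediate-layer cell. Tfap2b lay between 71.3 and 729 CPM in the basal layer (median 236) and had 315, 183, 150.0 and 515 CPM in K17-high cells, with 45.8 CPM in the intermediate-layer cell. These genes were on in 16 of 16 cells, and their K17-high and basal-layer values overlapped. Klf5 lay between 0.666 and 108 CPM in the basal layer (median 56.1), with 373, 0, 0.445 and 25.8 CPM in K17-high cells and 827 CPM in the intermediate-layer cell. Only 1 K17-high cell was above every basal-layer cell in Klf5, and 2 were below every one of them. Grhl3 was at most 1.80 CPM in 10 basal-layer cells and 64.95 CPM in cell 1, and had 0.292, 0.570, 221 and 51.1 CPM in K17-high cells and 967 CPM in the intermediate-layer cell. Grhl1 was at most 0.763 CPM in the basal layer and 0.583 CPM in K17-high cells, and 472 CPM in the intermediate-layer cell. The intermediate-layer cell thus held the highest Grhl1, Grhl3, Klf5 and Tfap2c of the 16 cells, without a count of Krt8 or Krt18.

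Tfap2c lay between 0 and 64.1 CPM in the basal layer (median 14.4), with 0.292, 72.1, 62.1 and 0.315 CPM in K17-high cells and 166 CPM in the intermediate-layer cell. Grhl2 lay between 0.386 and 335 CPM in the basal layer (median 88.6), between 47.2 and 75.1 CPM in K17-high cells and at 40.8 CPM in the intermediate-layer cell. Tfap2a lay between 2.99 and 62.4 CPM in the basal layer (median 16.3), between 2.48 and 44.4 CPM in K17-high cells and at 8.49 CPM in the intermediate-layer cell. For these 3 genes the basal-layer and K17-high values overlapped.

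**Figure D4:**
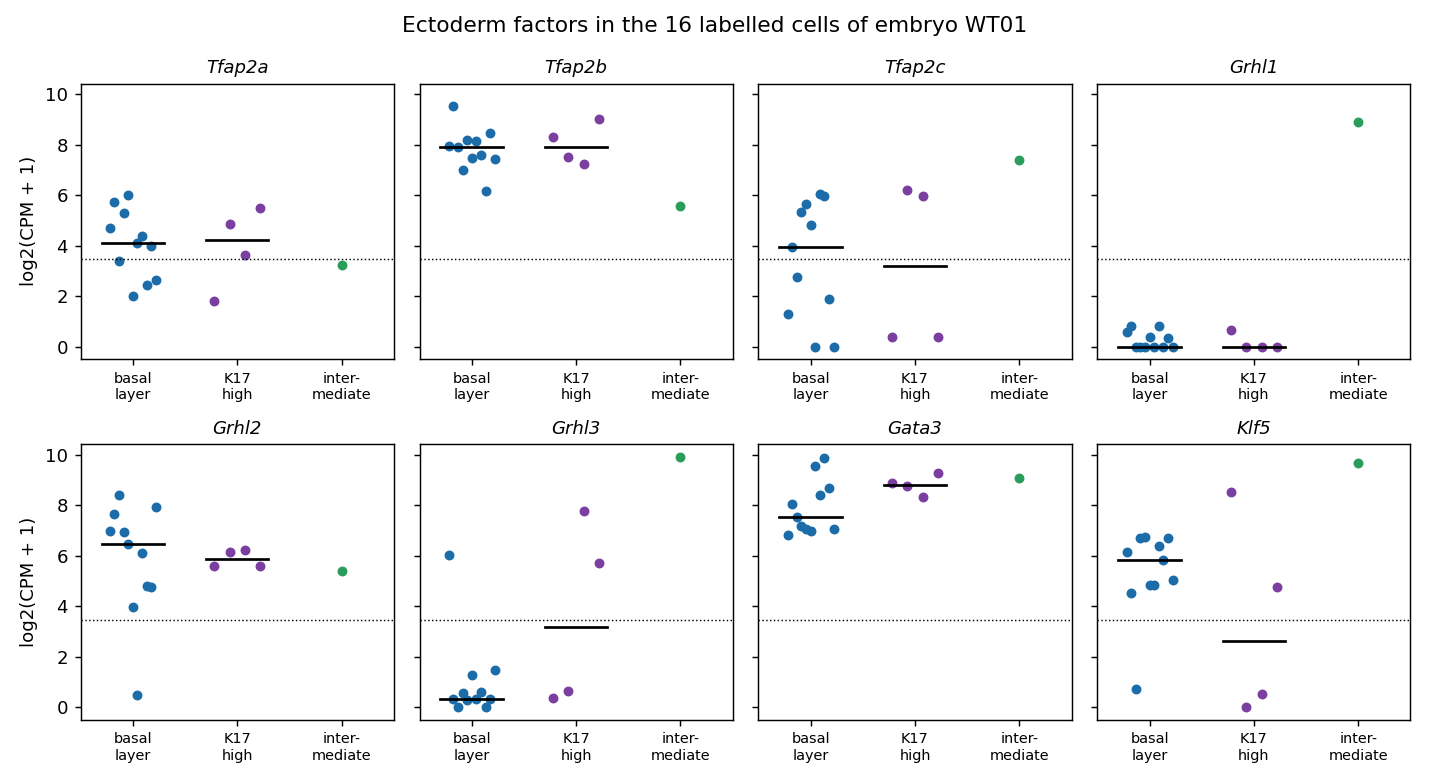
Level of each factor, as log2(CPM + 1), in 11 basal-layer, 4 K17-high and 1 intermediate-layer cells of embryo WT01, with 1 point per cell, bars at the medians and the dotted line at 10 CPM. The intermediate-layer cell is highest for Grhl1, Grhl3, Klf5 and Tfap2c, and Gata3 and Tfap2b are on in all 16 cells.

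In summed cells, 1 of 8 factors, Grhl3, was at least 4-fold higher in K17-high than in basal-layer cells, where 957 of 21220 genes (4.51%) were. Its level was 79.2 CPM (76.0 to 82.5) against 6.56 CPM (6.03 to 7.12), a log2 ratio of 3.41. Without K17-high cell 3 the ratio was 1.20, and without basal-layer cell 1 it was 5.74, so its size rests on these cells. None of the 8 was at least 4-fold lower, where 1410 genes (6.64%) were. No factor had every K17-high cell above every basal-layer cell, as 0.207% of genes had, or below, as 0.0613% had. The median log2 ratio of the 8 factors was 0.28, beside -0.040 for all genes.

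In the intermediate-layer cell, 4 of 8 factors were at least 4-fold higher than in the summed basal layer, where 1068 of 20394 genes (5.24%) were. These were Grhl1 (log2 ratio 8.59), Grhl3 (7.002), Klf5 (3.81) and Tfap2c (2.74). The ratio of Grhl3 was 9.33 without basal-layer cell 1. At least 4-fold lower was 1 of 8, Tfap2b (-2.48), beside 4537 genes (22.2%). As this is 1 cell, the values describe that cell.

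The relatives and partners of the factors were taken from fixed lists. Changes of 4-fold in the lists are those of summed columns. With medians of columns, the list members Tfap2c, Grhl1 and Grhl3 were more than 4-fold higher in simple columns. Of 9 AP-2 genes and regulators, 8 had a count in either epithelial state. None was at least 4-fold higher in simple columns, and 1 was at least 4-fold lower, Cited4 (5.70 CPM in basal and 0.331 CPM in simple columns). Kctd15, which encodes a repressor of AP-2 activity, was on in 66.7% of basal and 46.97% of simple columns, and Cited2, a coactivator, in 51.9% and 71.2%. Tfap2d had no count, and Tfap2e was on in 5.56% of basal columns and in 0% of simple columns. Of 6 Grainyhead and CP2 genes none changed 4-fold, and Ubp1, a broadly expressed CP2 gene, was on in 77.8% of basal, 69.7% of simple and 64.6% of mesenchymal columns. Gata3 was the 1 GATA gene on in most columns of either epithelial state: Gata1, Gata2, Gata4 and Gata5 had no count there, and Gata6 was on in 1.85% of basal and 3.03% of simple columns. Of 17 Klf genes, 16 had a count, none was 4-fold higher and Klf15 was 4-fold lower in simple columns, with a log2 ratio of -4.18 (51.005 and 1.87 CPM). On in most columns were 7 Klf genes in the basal state and 3 in the simple state (Klf3, Klf5 and Klf6), and of these 3 only Klf5 was not on in most mesenchymal columns.

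Other regulators and targets of the epidermis gave the frame. Of 10 other epidermal regulators, 1 was at least 4-fold higher in simple columns, Elf3 (log2 ratio 5.60, on in 1.85% of basal and 51.5% of simple columns), and none 4-fold lower. Trp63 had a log2 ratio of -1.49 (553 and 197 CPM). Of 10 epithelial genes, the claudin genes Cldn6 (4.65) and Cldn4 (2.40) were at least 4-fold higher and Dsg1a (-2.15) at least 4-fold lower, and Cdh1 and Epcam were on in 90.9% and 96.97% of simple columns. Of 5 mesenchymal repressors, Snai2 was the 1 that changed 4-fold between epithelial states, with 333 CPM in basal and 0.229 CPM in simple columns (log2 ratio -8.09). Zeb1 and Zeb2 were on in no basal and no simple column.

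**Figure D5:**
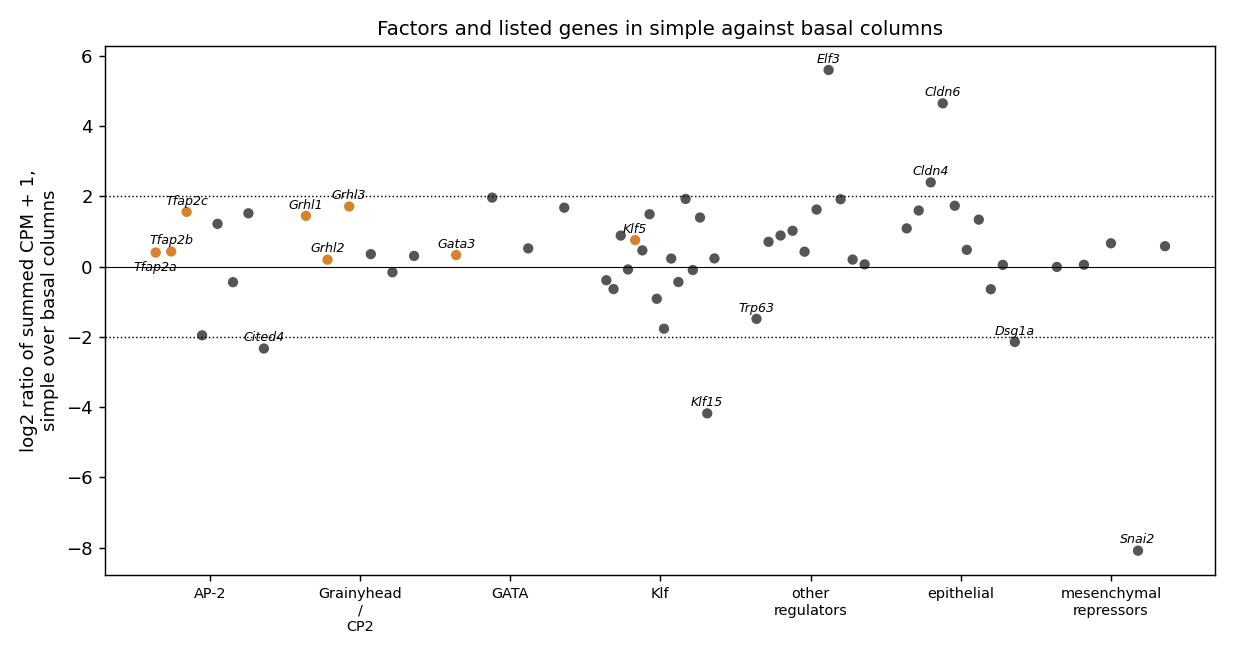
Log2 ratio of simple over basal columns, after adding 1 CPM to the summed CPM, for the 8 factors (orange) and the other listed genes with a count (grey), with dotted lines at 4-fold. The 8 factors lie between 0.20 and 1.71, while Trp63 lies at -1.49, Snai2 at -8.09 and Elf3 at 5.60.

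Markers of other cell types were read as whole lists in the same columns, and the gene with the largest CPM is named for some lists, which is a share of counts not corrected for length. Of 6 fibroblast genes, 1 was on in most basal and most simple columns, Dcn, with 686 and 965 CPM, and the list summed to 708, 1078 and 24000.4 CPM in basal, simple and mesenchymal columns. Of the other list members, Col1a2 had 7.91 CPM in basal and 65.98 CPM in simple columns, and Lum had 0.744 and 43.8 CPM. Both were at least 4-fold higher in simple columns. Fbn1 was lower there, with 12.6 CPM in basal and 3.10 CPM in simple columns, as was Pdgfra, with 0.335 and 0.0353 CPM. Twist2 was at 0 in basal columns and at 0.0264 CPM in simple columns. Col3a1 itself was on in 36 of 66 simple columns, and the median number of factors on was 6.5 in these and 6 in the other 30. Of 4 blood genes none was on in most columns, but the list summed to 10941 CPM in simple and 18.3 CPM in basal columns, with the largest CPM for Hba-a1 (7506 in simple columns), with Ptprc at 0 in both. Without simple columns at 10 CPM or more of Col3a1, or of Hba-a1, 8 of 8 factors were on in most simple columns, but the log2 ratios of simple over basal columns moved. Grhl1 went from 1.45 to 1.94 without the Col3a1 columns and 1.19 without the Hba-a1 columns, Gata3 from 0.33 to 0.18 and 0.32, Grhl2 from 0.20 to 0.42 and 0.091, and Tfap2b from 0.43 to 0.45 and 0.76. The part of RNA from other cells in these levels was not tested.

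The remaining lists were low or followed the states. The 3 suprabasal genes summed to 293 CPM in basal and 10.1 CPM in simple columns, with the largest CPM for Krt10 and none at 0. The 5 periderm genes, a list that holds Grhl3, summed to 1139 CPM in basal columns, of which Krt17 had 638, and to 594 CPM in simple columns, of which Grhl3 had 304. Krt4, another gene of that list, was on in 1.85% of basal and 10.6% of simple columns. The lists of neural crest and Schwann genes summed to 74.7 and 203 CPM in basal and simple columns, nearly all of it Erbb3 (74.0 and 199 CPM), with Foxd3 and Ngfr at 0. Mesothelium genes summed to 2.27 and 42.98 CPM, of which Upk3b had 21.6 in simple columns, with Wt1 at 0 in basal columns. Below 10 CPM in sum in both states were the Merkel (2.20 and 8.77 CPM, Atoh1 at 0 in simple columns and Krt20 at 0 in basal columns), melanocyte (9.46 and 7.64 CPM), neuron (1.18 and 0.0599 CPM), endothelium (0.765 and 6.57 CPM) and muscle (0.943 and 0.582 CPM) lists. Whether rare cells of these types lie among the columns was not tested.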

How the data were processed

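Single cells of E14.5 mouse skin were sequenced as SMART-Seq HT and Nextera XT libraries. By their methods and the submitters' processing notes, the authors aligned the reads to mm10 with HISAT2 (Galaxy 2.1.0) after Trimmomatic and counted them with featureCounts (Galaxy 1.6.4) on Ensembl release 97; settings for strand and for reads with several alignments were not given in the sources used here. Values deposited by the authors are estimated counts, not normalized, in 237 columns; 23.2% of those above 0 carry a fraction, and all were rounded. A supplementary table of the study paired 16 columns with labelled cells, and 221 columns of per-cell values were not paired with a sample and were used only as a pool. No 2 columns were identical. CPM used the column total. Shares carry exact Clopper-Pearson and sums exact Poisson 95% intervals, and a count of 0 allows 3 counts. Gene positions, symbols (55154 of 55335 matched) and merged exon lengths came from GENCODE M21 (GRCm38), and promoters from RefSeq. Correlations are Spearman's rho of CPM. Thinning drew 1000000 counts per column without replacement. No test between groups was made, and the log2 ratio was checked on simulated data. Dixon's critical value was used only to flag single cells.

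Genes were named by a fixed rule: the 8 factors, the members of the gene and marker lists, genes that overlap a factor, and the 3 nearest genes of each factor. Of these, 1 gene is not reported here. The factors and the lists were chosen with earlier results of these data known. The splits of columns by Grhl3, Grhl1, Klf5 and the number of factors on, and the genes named beside them, were chosen after their values were seen. Alternatives were other limits for on, for most and for the states, depth, thinning, means, medians, pseudocount, fractional counts, other totals, size factors, a filter on low values and leaving out cells. Computation used scipy 1.17.1, pandas 2.3.3 and numpy 2.4.6 under Python 3.11.15, with figures from matplotlib 3.10.9.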

Additional observations from a re-analysis of the deposited data

Results flagged for a closer look

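In the 4 K17-high cells of WT01, the highest cell stood apart from the others for 2 of the 8 factors, by a gap that was larger, relative to the whole range, than Dixon's 95% critical value. Klf5 had 373 CPM in cell 1, against at most 25.8 CPM in the other 3, a gap of 0.931 of the range. Grhl1 had 0.583 CPM in cell 1, from 4 counts, and no count in the other 3, which is a difference near the floor of counting. For normal values chance gives such a gap in about 1 of 20 groups, and 8 were looked at. That rate need not hold here, since CPM of few cells with many zeros are not normal, and for Grhl1 the gap is the whole range because the other 3 cells are at 0. The log2 ratio of Klf5 between K17-high and basal-layer cells was 0.68 with all cells and -2.79 without cell 1, so its sign rests on this cell.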

How the results depend on the processing

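Every factor was on in most simple columns under the alternatives run, with 2 exceptions. At least 75% in place of 50% of the columns left 5 of 8 (Tfap2b, Tfap2c, Grhl3, Gata3 and Klf5), and a limit of 30 CPM left 7. The shares of all genes at these limits were not counted, so these drops are not set against other genes. The count of factors at least 4-fold lower in simple columns was 0 in each alternative. The count at least 4-fold higher was 0 in each but the medians of columns, where it was 3; the cause was not tested. With medians of columns, 2.99% of the genes with a median above 0 in either state were at least 4-fold higher and 20.97% at least 4-fold lower, against 3.35% and 1.89% of the genes with a count in the main setting, so the shares are of different genes.

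The median log2 ratio of the factors, simple over basal, was 0.59 and stayed positive. It was 0.63 with the limits of the states halved, 0.57 with them doubled, 0.61 without the mesenchymal column, 0.72 after thinning to 1000000 counts, 0.73 with means and 0.32 with medians of columns, and 0.80 with size factors. In alternatives added after seeing the data, it was 0.71 in simple columns under 10 CPM of Col3a1 and 0.68 in those under 10 CPM of Hba-a1. The cause of these shifts was not tested. With the minimum total of 1000000 counts no column was left out.

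For single factors, 52 ratios of simple over basal stayed within counting error and 60 moved beyond it. Tfap2c, Grhl1, Grhl3 and Klf5 kept their sign in 14 of 14 alternatives and the other 4 in 13, the exception being the medians of columns.

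Between K17-high and basal-layer cells, the median log2 ratio of 0.28 lay between 0.084 and 0.41 with each cell left out in turn. No paired analysis was possible because the results come from no test between groups and the labelled columns from 1 embryo. Taken as 3 counts, depth limits a gene without a count to 0.0342 CPM in the summed basal-layer cells and 0.00529 CPM in the summed simple columns, in reads and not molecules. The exact Poisson interval of such a gene reaches 0.0420 and 0.00650 CPM there. Without embryo or genotype for most columns, no difference here can be assigned to p63.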

Other observations

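In 7 columns Krt5, Krt14 and Krt8 were all under 100 CPM. Tfap2b had a median of 82.3 CPM in them and was on in 5, Klf5 in 4 and Tfap2a in 3, whereas Gata3 and Grhl1 were on in 1 each and Tfap2c, Grhl2 and Grhl3 in 0. Their median of Trp63 was 0.245 CPM, of Epcam 0 CPM and of Col3a1 972 CPM. Summed over all 34 columns that met no rule, the melanocyte genes had 698 CPM, the muscle genes 298 CPM and the neuron genes 44.2 CPM, each under 10 CPM in basal and in simple columns; how much of this lies in the 7 columns was not tested.

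In the 17 simple columns with under 10 CPM of Trp63, a median of 6 factors was on, as in the 49 simple columns with more Trp63. The median of Trp63 was 0.704 CPM in the former and 168 CPM in the latter, and the medians of Epcam were 1091 and 1161 CPM. Col3a1 had medians of 0.608 and 220.5 CPM in them.

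Gm13256, which overlaps Gata3 on the opposite strand, was on in 53.7% of basal and 21.2% of simple columns, with Spearman correlations to Gata3 of 0.53 in basal and 0.22 in simple columns.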
